A study of Mus musculus with 35 samples.

Results

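Sfmbt2, Rprm, Abhd1, Klhl14 and Tmc3 were the 5 genes whose striatal RNA was raised most in mice that carry the Htt Q111 allele, out of 22099 genes in the count table. They were chosen by their genotype difference in these same mice, as the largest mean increases that held under every treatment among genes averaging at least 1 CPM (a gene's counts scaled to a common library total). They also had to be called between genotypes at an adjusted p under 0.05 (limma). That call depends in part on the spread between mice of a group. All 5 passed the filter on low counts, which kept 17639 genes. Their genotype differences, overall and within each treatment, are therefore given as a description, without a test. Differences between treatments averaged over genotypes and the values of related and neighbouring genes were not used to choose them.

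RNA from the hemistriatum of 35 female mice was sequenced, right side for 34 mice and left side for 1. The study asked whether lowering huntingtin outside the brain alters signs of Huntington's disease in the striatum. Mice carried either 2 wild-type Htt alleles (+/+) or 1 knock-in allele with a long CAG repeat (Q111/+) as littermates on a C57BL/6J background, and were 299 to 304 days old. From month 2 to month 10 of age they were injected intraperitoneally every week with saline (4 µL per g), with a control antisense oligonucleotide (control ASO, 50 mg per kg) or with an ASO against mouse Htt of both alleles (Htt ASO, 50 mg per kg). Each of the 6 groups held 6 mice, apart from the +/+ mice given control ASO, which numbered 5. The label ASO1 was taken as the Htt ASO. The knock-in allele is in every cell, and in whole tissue fewer cells of a type and less RNA per cell cannot be told apart. Total counts ran from 32200158 to 38641924 per mouse.

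Huntington's disease is caused by an expanded CAG repeat in HTT, which lengthens a glutamine tract in the huntingtin protein. The medium spiny projection neurons of the striatum are the cells most affected, and loss of their identity genes is a known early feature of knock-in mice. The 5 raised genes belong to unrelated families. Sfmbt2 encodes a Polycomb group protein with MBT domains and is known as an imprinted gene that hosts a large microRNA cluster. Rprm encodes Reprimo, a small membrane-associated protein induced by p53 that is linked to cell cycle arrest. Abhd1 belongs to the alpha/beta hydrolase domain family, Klhl14 encodes a Kelch-like BTB protein, and Tmc3 belongs to the transmembrane channel-like family whose members Tmc1 and Tmc2 serve mechanotransduction in hair cells.

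The RefSeq table of promoters (GRCm38.p6) held entries for 3 of the 5 genes, Sfmbt2 with 2 start sites and Rprm and Tmc3 with 1 each. The 250 bases before each start are shown because they let a reader compare the promoters of these co-raised genes in base composition. G and C made up 58.4% and 60.8% of the Sfmbt2 windows, 62.4% of the Rprm window and 51.2% of the Tmc3 window. Each is written 5′ to 3′ on the strand of the gene, with CG dinucleotides in capitals, at chr2:10370201-10370450 (+) and chr2:10372186-10372435 (+) for Sfmbt2, chr2:54085553-54085802 (-) for Rprm and chr7:83584681-83584930 (+) for Tmc3.
Sfmbt2 start 1: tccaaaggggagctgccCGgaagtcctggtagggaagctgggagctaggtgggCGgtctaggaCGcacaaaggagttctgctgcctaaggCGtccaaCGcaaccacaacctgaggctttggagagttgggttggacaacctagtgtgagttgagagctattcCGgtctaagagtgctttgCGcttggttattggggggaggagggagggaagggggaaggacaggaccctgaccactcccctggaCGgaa
Sfmbt2 start 2: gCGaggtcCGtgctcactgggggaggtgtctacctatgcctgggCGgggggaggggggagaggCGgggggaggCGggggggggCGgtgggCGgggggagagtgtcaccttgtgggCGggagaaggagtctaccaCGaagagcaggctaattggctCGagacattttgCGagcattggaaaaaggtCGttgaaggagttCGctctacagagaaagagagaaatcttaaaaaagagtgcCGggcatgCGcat
Rprm: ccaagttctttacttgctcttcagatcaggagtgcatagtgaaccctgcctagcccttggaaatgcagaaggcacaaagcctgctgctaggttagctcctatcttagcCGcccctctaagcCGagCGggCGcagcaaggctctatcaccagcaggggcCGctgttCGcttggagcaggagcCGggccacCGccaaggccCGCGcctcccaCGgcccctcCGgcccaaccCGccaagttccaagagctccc
Tmc3: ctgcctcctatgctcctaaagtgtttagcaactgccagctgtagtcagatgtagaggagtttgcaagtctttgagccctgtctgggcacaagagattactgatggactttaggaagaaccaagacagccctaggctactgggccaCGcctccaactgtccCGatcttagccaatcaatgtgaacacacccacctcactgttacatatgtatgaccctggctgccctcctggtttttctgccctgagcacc

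The windows held 8 and 15 CG dinucleotides for Sfmbt2, 13 for Rprm and 2 for Tmc3, against a median of 6 over 32851 promoter windows of the same length. Of those windows, 57.0% and 72.7% held fewer CG than the windows of Sfmbt2, 68.5% fewer than Rprm and 18.8% fewer than Tmc3. Searched on both strands, GGGCGG (whose letters overlap CG) matched 1 and 4 times in the Sfmbt2 windows and 1 time in Rprm, and is present in 32.7% of all windows. CCAAT matched 1 and 2 times for Sfmbt2 and 1 time for Tmc3, and is present in 33.9% of all windows. TATAAA matched none of these 4 windows and is present in 12.4% of all windows.

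All 5 genes were expressed at a low level in the striatum. Per kilobase of the longest annotated transcript (GENCODE), Rprm had the highest mean in Q111/+ mice, at 7.01 CPM per kb, followed by Abhd1 at 3.70, Sfmbt2 at 1.04, Klhl14 at 0.622 and Tmc3 at 0.441 CPM per kb. The order was the same in +/+ mice, from 3.12 CPM per kb for Rprm to 0.201 for Tmc3. In CPM without regard to length, counts behind the +/+ values ran from 117 to 231 reads per mouse for Rprm down to 30 to 62 for Klhl14 and 36 to 57 for Tmc3.

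Sfmbt2 showed the largest increase of any gene in the ranking. On saline, +/+ mice had 2.16 CPM at the lowest, 2.85 at the median and 3.31 at the highest, and Q111/+ mice had 5.51, 7.75 and 9.71 CPM. On control ASO, the 5 +/+ mice had 2.31, 2.52, 2.70, 2.88 and 3.66 CPM, and Q111/+ mice had 7.32 at the lowest, 7.97 at the median and 10.8 at the highest. On Htt ASO, the lowest, median and highest were 2.28, 3.01 and 3.55 CPM in +/+ mice and 6.47, 8.10 and 9.37 CPM in Q111/+ mice. The genotypes did not overlap under any treatment, and the lowest Q111/+ mouse was 1.51 times the highest +/+ mouse. Over treatments the mean was 2.86 ± 0.424 CPM (SD, n = 17) in +/+ and 8.16 ± 1.21 CPM (SD, n = 18) in Q111/+ mice, a log2 difference of 1.51 (SE 0.084), or 2.84-fold.

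Rprm, the p53-induced Reprimo gene, was the most abundant of the 5. On saline, +/+ mice ranged from 3.67 CPM through a median of 4.35 to 6.78, and Q111/+ mice from 8.66 through 9.82 to 12.0 CPM. On control ASO, the +/+ mice had 4.28, 4.37, 4.69, 4.79 and 5.89 CPM, and Q111/+ mice ranged from 9.15 through 9.88 to 12.3 CPM. On Htt ASO, +/+ mice ranged from 3.46 through 4.06 to 5.56 CPM and Q111/+ mice from 9.94 through 10.3 to 10.8 CPM. The genotypes were again fully separate, with the closest approach between a +/+ saline mouse and a Q111/+ saline mouse. Q111/+ mice given Htt ASO were the tightest group, with a coefficient of variation of 3.07% (n = 6) against 12.5% on saline and 11.7% on control ASO. Counting alone would give 5.21% in that group, so the low value is not read as an effect of the Htt ASO. The overall difference was 1.18 (SE 0.065) on the log2 scale, or 2.26-fold, from 4.56 ± 0.867 CPM (SD, n = 17) to 10.2 ± 0.983 CPM (SD, n = 18).

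Abhd1 was separate between genotypes in every mouse but 1. On saline, +/+ mice ranged from 2.58 through 2.73 to 3.32 CPM, and Q111/+ mice from 2.81 through 6.49 to 7.05 CPM. On control ASO, the +/+ mice had 2.32, 2.67, 2.99, 3.0 and 3.21 CPM, and Q111/+ mice ranged from 5.10 through 5.99 to 6.63 CPM. On Htt ASO, +/+ mice ranged from 2.25 through 2.57 to 2.84 CPM and Q111/+ mice from 5.37 through 6.30 to 6.99 CPM. Thus 17 of 18 Q111/+ mice lay at 5.10 CPM or higher, above every +/+ mouse, and 1 saline mouse lay at 2.81 CPM (92 counts), inside the +/+ range. The overall difference was 1.13 (SE 0.091) on the log2 scale, or 2.19-fold, and 1.19 without that mouse.

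Klhl14, which encodes the Kelch-like protein also known as printor, had few counts and the narrowest gap. On saline, +/+ mice ranged from 0.871 through 1.08 to 1.80 CPM, and Q111/+ mice from 1.83 through 3.27 to 3.45 CPM. On control ASO, the +/+ mice had 1.23, 1.34, 1.36, 1.38 and 1.43 CPM, and Q111/+ mice ranged from 2.00 through 2.31 to 3.35 CPM. On Htt ASO, +/+ mice ranged from 1.02 through 1.34 to 1.69 CPM and Q111/+ mice from 2.24 through 2.73 to 3.47 CPM. Every Q111/+ mouse was above every +/+ mouse, but the lowest of the former exceeded the highest of the latter by a factor of only 1.02, which at 60 and 62 counts is well within counting error. The overall difference was 1.08 (SE 0.103) on the log2 scale, or 2.11-fold.

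Tmc3, the transmembrane channel-like gene, was the lowest per kilobase and the most variable in Q111/+ mice. On saline, +/+ mice ranged from 1.04 through 1.13 to 1.36 CPM, and Q111/+ mice from 1.96 through 2.37 to 6.22 CPM. On control ASO, the +/+ mice had 1.04, 1.11, 1.17, 1.25 and 1.34 CPM, and Q111/+ mice ranged from 1.67 through 2.45 to 3.18 CPM. On Htt ASO, +/+ mice ranged from 1.07 through 1.39 to 1.62 CPM and Q111/+ mice from 1.96 through 2.61 to 3.69 CPM. The genotypes did not overlap, with 1.67 CPM as the lowest Q111/+ value and 1.62 CPM as the highest +/+ value. A single saline mouse at 6.22 CPM (231 counts) stood above the next highest of its group, at 3.43 CPM. The overall difference was 1.08 (SE 0.138) on the log2 scale, or 2.11-fold, and 0.999 without that mouse.

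**Figure D1:**
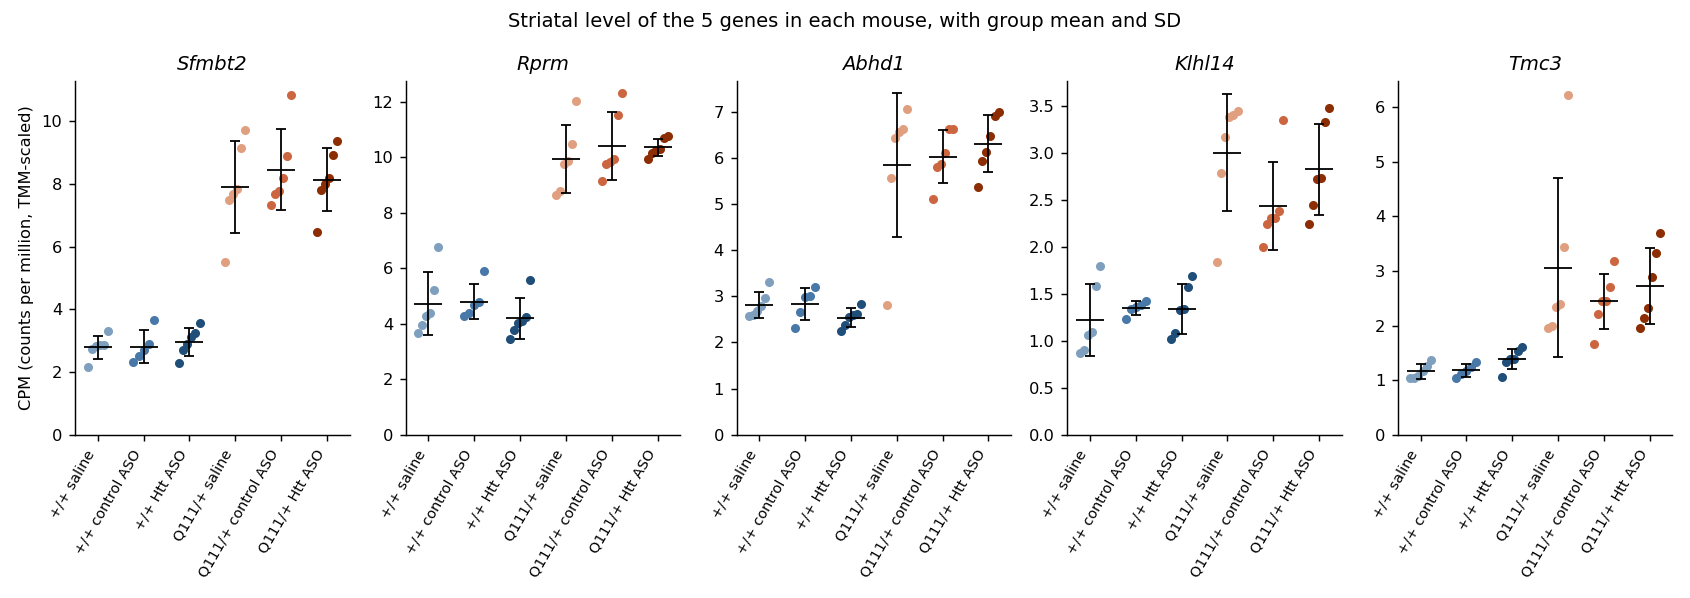
CPM (y axis, from 0) of each of the 5 genes in each mouse (points) of the 6 groups (x axis), with horizontal bars at the group mean and error bars of 1 SD (n = 6, or 5 for +/+ control ASO). Q111/+ mice lie above +/+ mice for every gene, apart from 1 saline mouse at 2.81 CPM for Abhd1, and 1 saline mouse stands alone at 6.22 CPM for Tmc3.

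Across all tested genes, limma after voom called 21.8% higher and 18% lower in Q111/+ mice at an adjusted p under 0.05 (Benjamini-Hochberg), and 0.93% had every Q111/+ mouse above every +/+ mouse. Sfmbt2, Rprm, Klhl14 and Tmc3 had full separation in this sense, but since they were ranked on this contrast nothing is read from it. The gene just inside the limit was Tmc3, at a log2 difference of 1.08, and the gene just outside was Pcdh20, a protocadherin, at 1.07 (SE 0.054) and a higher mean of 12.2 CPM. The next were EG574403 and Tnnt2 (cardiac troponin T) at 1.01 each, Slitrk6 at 1.01 and the desmosomal cadherin gene Dsg1c at 1.01. Order among Klhl14, Tmc3 and Pcdh20 was closer than their standard errors. A further 16 genes below 1 CPM rose by more than Tmc3 and were outside the choice for their low level.

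The genotype difference within each treatment entered the choice of the 5 genes, which had to rise under all 3, so these values describe the genes and test nothing. For Sfmbt2 the log2 genotype difference was 1.48 with saline, 1.58 with the control ASO and 1.45 with the Htt ASO (SE 0.140 to 0.153). For Rprm it was 1.097, 1.11 and 1.32, and for Abhd1 1.01, 1.08 and 1.304 in the same order. Rprm and Abhd1 thus had their largest value on Htt ASO, while Tmc3 fell in order from 1.27 through 1.02 to 0.94 and Klhl14 had its lowest value, 0.83, on control ASO against 1.33 on saline. The gap between the highest and the lowest treatment was widest for Klhl14, at 0.50 on the log2 scale with an SE of 0.256. For Tmc3, Htt ASO minus saline was -0.33 (SE 0.327). The saline values of Tmc3 and Abhd1 include the single mice at 6.22 and 2.81 CPM. Each 95% interval of such a difference between treatments included 0, so no order of treatments is read from these values.

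**Figure D2:**
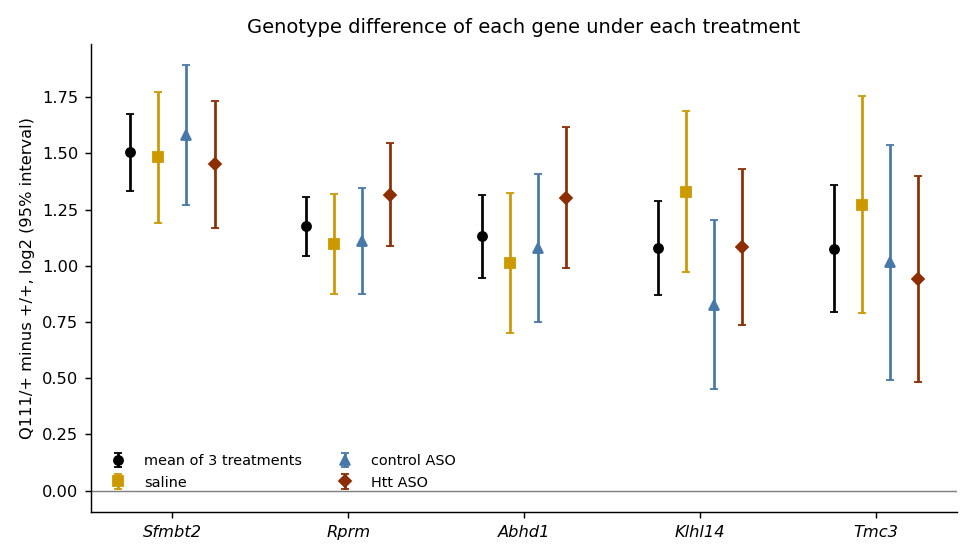
Log2 difference between Q111/+ and +/+ mice (y axis) of the 5 genes (x axis), averaged over treatments (black) and within each of the 3 treatments, with 95% intervals from limma after voom. These values were used to choose the genes and are a description, with Sfmbt2 highest at 1.51.

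Neither ASO moved any of the 5 genes past the threshold. With genotypes averaged, Htt ASO against control ASO gave log2 differences of 0.02 for Sfmbt2, -0.10 for Rprm, -0.05 for Abhd1, 0.09 for Klhl14 and 0.19 for Tmc3, with adjusted p of 0.96 to 0.992 (limma, over 17639 genes). This contrast called 0 of the 5 genes, against 165 genes (0.935%) overall. Htt ASO against saline called 0 of 5, against 1.47% of all genes, and control ASO against saline called 0 of 5, where 0% of all genes were called (1357 had an unadjusted p under 0.05, and edgeR and DESeq2 also called 0). Htt ASO against control ASO within +/+ mice (0.295% of genes called) and within Q111/+ mice (0.357%) called 0 of 5 as well. In none of these 25 values was an unadjusted p under 0.05 by limma, edgeR or DESeq2. In the 3 averaged contrasts every 95% interval lay between -0.46 and 0.53 on the log2 scale, the widest being those of Tmc3, so changes of the size of the genotype differences were not within them. A p that misses the threshold does not show that the levels were the same.

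**Figure D3:**
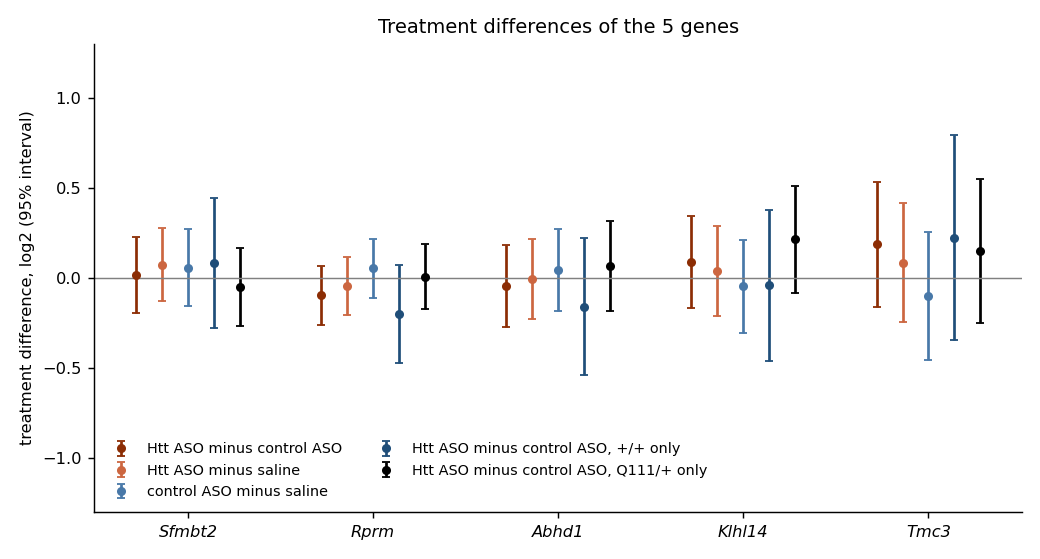
Log2 difference between treatments (y axis) of the 5 genes (x axis) for 5 treatment contrasts (colours), with 95% intervals from limma after voom, genotypes averaged or taken alone. Every interval spans 0, and the farthest point is Tmc3 in +/+ mice at 0.22.

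Huntingtin itself, listed as Hdh, was lower in Q111/+ mice, at 75.3 ± 8.37 CPM (SD, n = 18) against 88.3 ± 10.7 CPM (SD, n = 17), a log2 difference of -0.23 (SE 0.055, adjusted p = 0.001 by limma). Htt ASO against control ASO changed its striatal RNA by -0.08 (SE 0.068, adjusted p = 0.967), which did not pass the threshold. The contrast in which the 5 genes were tested for a response is thus one in which the targeted RNA in the striatum was itself not called. That follows the design, since the paper states that ASOs given outside the brain are kept out of it. It reports that the Htt ASO lowered huntingtin protein in liver and fat but not in the striatum.

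The lane given in the sample titles touched the genotype contrast, since lane 7 held 6 Q111/+ mice and no +/+ mice. Within the 5 lanes that held both genotypes, the log2 difference was 1.296 to 1.69 for Sfmbt2, 0.99 to 1.31 for Rprm, 0.67 to 1.19 for Abhd1, 0.70 to 1.21 for Klhl14 and 0.66 to 1.18 for Tmc3. Each lane held the same direction for each gene, with 2 to 4 mice per genotype. The lowest value of Abhd1 and of Tmc3 was in lane 4, which held the saline mouse at 2.81 CPM for Abhd1.

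Mouse-to-mouse spread differed among the genes. In Q111/+ mice the coefficient of variation within groups was 38.95% for Tmc3, 19.2% for Klhl14, 16.9% for Abhd1, 15.6% for Sfmbt2 and 9.96% for Rprm, against 10.1%, 10.0%, 6.78%, 5.84% and 5.22% from counting alone. In +/+ mice Tmc3 was at 12.1%, below the 15.1% given by counting alone, and Abhd1 at 10.3%, equal to its counting value. The genes nearest in level to each had a median of 14.4% for Tmc3 and 8.93% for Sfmbt2 in Q111/+ mice (500 genes each). There the medians were 14.3% for Klhl14, 10.1% for Abhd1 and 7.95% for Rprm. In +/+ mice they were 20.9% for Tmc3, 20.8% for Klhl14, 15.5% for Abhd1, 15.3% for Sfmbt2 and 12.0% for Rprm. Tmc3 was thus above its median in Q111/+ mice and below it in +/+ mice, as was Abhd1. Rprm was at 19.2%, Klhl14 at 21.5% and Sfmbt2 at 15.6% in +/+ mice. Single saline mice carried 2 of the Q111/+ values, since Tmc3 was at 23.8% without the mouse at 6.22 CPM and Abhd1 at 9.34% without the mouse at 2.81 CPM.

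The saline Q111/+ mouse low in Abhd1 (mouse 5, a number that serves only as a name) was examined gene by gene, a choice made after its value was seen. It was not low in the other genes throughout: among 18 Q111/+ mice its Sfmbt2, at 9.14 CPM, was the 15th from the bottom and its Rprm, at 9.87 CPM, the 7th, while its Tmc3, at 1.99 CPM, was the 4th and its Klhl14, at 1.83 CPM, the lowest. Over all tested genes, 397 separated the other 17 Q111/+ mice from the +/+ mice, and this mouse lay inside the +/+ range for 8 of these, Abhd1 among them. The same count made for each of the other 34 mice ran from 1 to 87, so 8 is within what single mice gave. All 9 of its summed marker lists were within the range of the other Q111/+ mice.

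Abhd1 lies on chromosome 5, the chromosome of Htt, whose start is 3.81 Mb away (GRCm38). The paper describes a congenic strain typed by PCR for the mutant Htt allele. An effect of that allele and one of DNA linked to it cannot be told apart here. In the 5 Mb on either side, 54 of 99 tested genes were called between genotypes, where over all tested genes 21.8% were called higher and 18% lower. Leaving Abhd1 and Htt aside, mouse 5 lay inside the +/+ range and outside the other 17 Q111/+ mice for 6 of 52 called genes within 5 Mb and for 4 of 20 within 1 Mb. How many of all called genes meet the same conditions was not counted, so these counts are not read as particular to the region. A stricter count was made over all tested genes, of those that separated the other 17 mice from the +/+ mice. Mouse 5 lay inside the +/+ range for 8 of 397 such genes. In the 5 Mb on either side this held for 2 of 3, Dpysl5 and Abhd1 itself, by which the mouse was picked. The 4 were Garem2, listed as Gm444, at 0.84 Mb to the left, and 3 genes within 0.24 Mb of Abhd1, which were the ones among them with a log2 difference of at least 0.15 in size, a limit set after the mouse was seen. These 3 were Dpysl5 (dihydropyrimidinase-like, a neuronal cytoskeleton regulator), Slc5a6 (the sodium-dependent multivitamin transporter) and Atraid, which is listed as 0610007C21Rik. Dpysl5 was at 49.5 CPM in mouse 5, at 54.9 to 63.4 CPM in the other Q111/+ mice and at 41.5 to 52.7 CPM in +/+ mice. Atraid, which was lower in Q111/+ mice, was at 42.4 CPM in mouse 5, at 34.8 to 39.8 CPM in the others and at 39.5 to 46.5 CPM in +/+ mice. Slc5a6 was at 21.4 CPM in mouse 5, at 21.8 to 27.7 CPM in the others and at 17.6 to 24.2 CPM in +/+ mice, so its groups overlapped.

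Some other called genes on both sides had mouse 5 with the other Q111/+ mice and outside the +/+ range. Cad, only 0.10 Mb to the right, was 0.08 above the +/+ mean in mouse 5 and 0.09 above it in the others (log2 CPM). For Cad, however, mouse 5 was inside the +/+ range as well, so that gene does not place it with either genotype. Otof, the otoferlin gene 0.58 Mb to the left, was at 29.9 CPM in mouse 5, at a median of 28.7 CPM in the other Q111/+ mice and at 43.1 CPM in +/+ mice. On the right, Nrbp1 at 0.29 Mb was at 63.0 CPM in mouse 5 against medians of 62.2 and 56.0 CPM, and Fndc4 at 0.34 Mb at 45.9 CPM against 45.1 and 41.0 CPM. Zfp513 at 0.25 Mb was in between, at 22.7 CPM against 23.9 and 21.7 CPM. Expressed as a share of the mean log2 difference of the other 17 mice, mouse 5 showed 4.47% for Abhd1, 24.4% for Dpysl5, 12.7% for Slc5a6 and -6.60% for Atraid, but 104% for Otof and 114% for Nrbp1. Htt itself was at 71.4 CPM in this mouse, within the 60.9 to 93.1 CPM of the others. Paxip1 at 3.21 Mb to the left and Add1 at 3.62 Mb to the right were, like Garem2, outside the other Q111/+ mice and inside the +/+ range. What lies behind the genes that depart in this mouse was not tested.

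**Figure D4:**
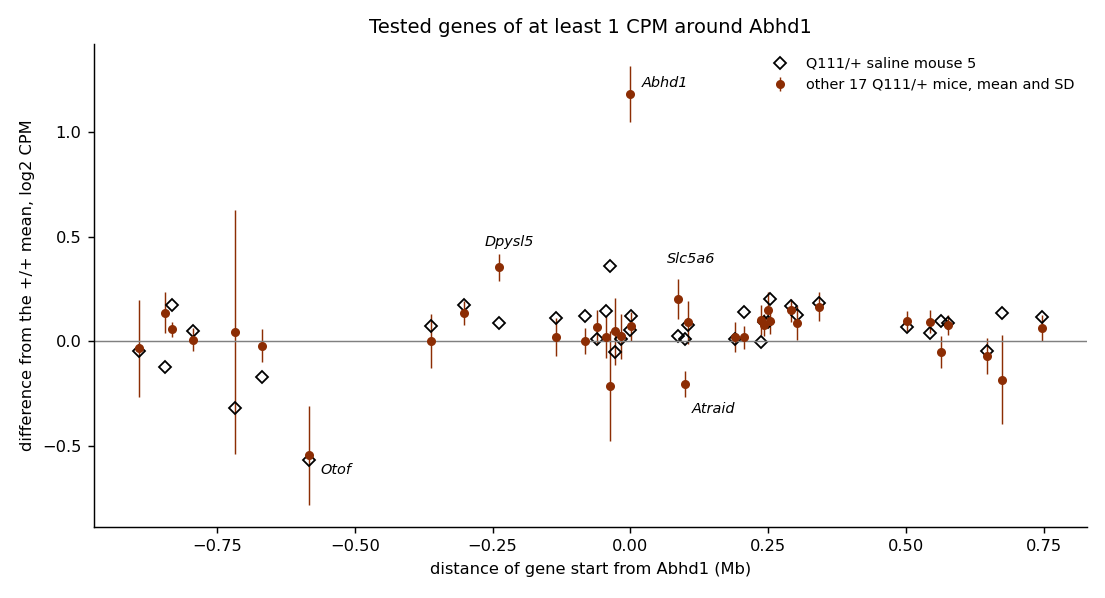
Difference from the +/+ mean in log2 CPM (y axis) of tested genes of at least 1 CPM, by distance of their start from Abhd1 in Mb (x axis), for the other 17 Q111/+ mice (filled circles, mean and SD) and for Q111/+ saline mouse 5 (open diamonds). The diamond sits at 0.05 for Abhd1 where the others average 1.18, and also departs from the others at Dpysl5, Slc5a6 and Atraid, whereas it coincides with them at Otof.

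Some neighbours of the 5 genes were called and others were not. Preb, which overlaps Abhd1 on the opposite strand, was at 48.7 ± 1.83 CPM in +/+ (SD, n = 17) and 51.3 ± 2.43 CPM in Q111/+ mice (SD, n = 18), a log2 difference of 0.08 (SE 0.021, adjusted p = 0.0041 by limma). Whether the counting used strand is not given in the sources used here, so reads from the shared stretch cannot be assigned for certain. Preb was at 52.8 CPM in mouse 5, inside the range of the other Q111/+ mice. GENCODE lists Abhd1 as a processed transcript and RefSeq as a transcribed pseudogene. The nearest tested genes on its left, Cgref1 (4.5 kb) and Khk (18.8 kb), had log2 differences of 0.02 and 0.05 that did not pass the test, as did Tcf23 on the right (-0.15), while Slc5a6 rose by 0.20 (adjusted p = 6.6e-05 by limma).

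Sfmbt2 lay between Itih5, an inter-alpha-trypsin inhibitor gene that fell by 0.15 on the log2 scale (adjusted p = 0.00025), and Prkcq, at 0.02 with no call. The next gene out on each side was Itih2 (-0.24, adjusted p = 0.051) and Pfkfb3, which fell by 0.24 (adjusted p = 4.5e-05 by limma). RefSeq places 72 microRNA genes within Sfmbt2, none of which is a row of the table. Rprm had Arl6ip6 on one side, at 0.01, and Galnt13 on the other, at -0.07, neither called, whereas Kcnj3, a potassium channel gene 1350 kb away, rose by 0.29 (adjusted p = 9.8e-06). Klhl14 had Garem1 (listed as Gm944) and Rnf138 on the left, of which Garem1 fell by 0.27 (adjusted p = 4.3e-06), and Asxl3 and Nol4 on the right, neither called. Tmc3 had Stard5 only 6.3 kb away on its right, a lipid transfer gene that rose by 0.36 (SE 0.046, adjusted p = 8.3e-08 by limma). Il16 beyond it was at -0.04, and Mex3b (listed as Rkhd3) and Efl1 (listed as Eftud1) on the left were at 0.02 and 0.06, none called. Sfmbt2, Klhl14 and Tmc3 each overlap an annotated antisense or noncoding transcript on the opposite strand.

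The families and pathways of the 5 genes were described by lists, to be read against 21.8% of all tested genes called higher and 18% called lower. Of 37 tested Polycomb and MBT genes other than Sfmbt2, 11 rose, 5 fell and 21 did not pass the test, with a median log2 difference of 0.02 against 0.00 over all genes. Among those that moved most were Cbx8 (0.64, from 6.05 ± 0.909 to 9.30 ± 0.970 CPM), L3mbtl3 (0.33) and Scml2 (0.32), with SD over 17 and 18 mice. Cbx8 encodes a chromobox subunit of a Polycomb repressive complex that reads histone methylation. Sfmbt1, the paralog of Sfmbt2, fell by 0.14 on the log2 scale (adjusted p = 0.010 by limma).

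Of 24 tested genes of the p53 pathway, in which Rprm is placed, 5 rose, 3 fell and 16 did not pass, with a median of -0.01. Eda2r, a receptor gene induced by p53, rose by 0.42 and the sestrin gene Sesn2 by 0.17, whereas Gadd45a, a DNA damage response gene, fell by 0.39 and the kinase gene Plk2 fell by 0.19. Trp53 rose by 0.12 (adjusted p = 0.0012) and Rprml, the paralog of Rprm, by 0.16 (adjusted p = 0.029). Of 15 tested alpha/beta hydrolase genes, 2 rose and 4 fell, the largest being the epoxide hydrolase gene Ephx1, which fell by 0.44, followed by Abhd14b (0.17), Abhd14a (-0.15) and Abhd2 (-0.10). Of 35 tested genes on the list for Klhl14, which holds Kelch-like and Kbtbd genes, Keap1, the cullin ligase genes Cul3 and Rbx1 and the torsins with their partners, 12 rose and 3 fell, led by Klhl1 (0.31), Klhl23 (0.23), Kbtbd11 (-0.22) and Klhl2 (-0.16). Of 12 tested genes on the list for Tmc3, which holds Tmc and Tmem63 genes and the hair cell transduction genes Cib2, Tmie, Pcdh15 and Cdh23, Tmem63b rose by 0.13 and 3 fell, namely Tmc8 by 0.65, Tmc4 by 0.29 and Tmc7 by 0.09.

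Markers of striatal cell types were set beside the increases. Of 11 tested medium spiny neuron markers, 9 fell and 1 rose (median -0.48), with Adora2a at -0.71, Pde1b at -0.53, Rgs9 at -0.52 and Drd2 at -0.50, and the summed level was high in every library and did not overlap between genotypes, at 5702 to 7092 CPM in +/+ and 4375 to 5172 CPM in Q111/+ mice. These counts, too, stand beside 21.8% of all tested genes called higher and 18% called lower. Of 7 septal and other subcortical neuron markers 2 rose, Nts by 0.49 and Trpc4 by 0.23, and Zic4 fell by 0.20, and of 8 astrocyte markers S100b rose by 0.12 while Slc1a2, Aqp4 and Slc1a3 fell by 0.73, 0.12 and 0.11. Cortical excitatory neuron markers had 1 of 7 lower (Rorb, -0.31), striatal interneuron markers 2 of 8 lower (Nos1 -0.30, Th -0.22) and choroid plexus markers 1 of 7 lower (Otx2, -0.44). Oligodendrocyte markers had 3 of 7 lower, microglia markers 5 of 8 lower (Aif1 -0.14) and endothelial markers 7 of 8 lower (Kdr -0.30). Summed cortical markers ran from 12.7 to 77.0 CPM in +/+ and from 11.7 to 77.5 CPM in Q111/+ mice. Summed choroid plexus markers ran from 43.4 to 1594 CPM in +/+ mice, where 1 library stood apart, and from 44.9 to 149 CPM in Q111/+ mice. The part of these cell types in the increases of the 5 genes was not tested beyond the relations that follow.

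Whether the 5 genes varied together from mouse to mouse was asked with log2 CPM centred on the 6 group means, so that genotype and treatment were removed. Of 55 relations, 10 pairs among the genes and 45 with marker lists, none had an adjusted p under 0.05 by permutation within groups (100000 resamples, two-sided), and 6 had an unadjusted p under 0.05. The closest pair was Klhl14 with Tmc3, with Pearson r = 0.40 (permutation p = 0.042, adjusted p = 0.421) and Spearman rho = 0.39 (permutation p = 0.029, adjusted p = 0.485). It was 0.58 in the 18 Q111/+ mice and 0.09 in the 17 +/+ mice, and 0.40 without the 2 mice farthest from the median of Tmc3. Here and below, those 2 mice were picked by the second gene or by the marker list only, so extremes of the first gene stayed in. Sfmbt2 with Rprm gave r = -0.02 (permutation p = 0.919, adjusted p = 0.945) and rho = -0.01 (permutation p = 0.979, adjusted p = 0.979), and 0.12 without the 2 farthest mice, so no relation between the 2 genes raised most was detectable within groups.

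Sfmbt2 tended to be lower in mice with more medium spiny neuron marker RNA, with r = -0.51 (permutation p = 0.0064, adjusted p = 0.35) and rho = -0.46 (permutation p = 0.010, adjusted p = 0.485) over 35 mice. The value was -0.47 in Q111/+ mice, -0.55 in +/+ mice and -0.43 without the 2 farthest mice. With lane removed as well as the group means, r was -0.63 (permutation p = 0.00028, adjusted p = 0.0154) and rho was -0.58 (permutation p = 0.00047, adjusted p = 0.0259), which passed the threshold, and r was -0.48 without the 2 farthest mice. The shuffles stayed within groups but ignored lane, so p-values with lane removed are approximate and may be too small. Tmc3 leaned the same way, with r = -0.47 (permutation p = 0.013, adjusted p = 0.352) and rho = -0.37 (permutation p = 0.039, adjusted p = 0.485), at -0.67 in Q111/+ mice and -0.06 in +/+ mice, -0.41 without the 2 farthest and -0.39 with lane removed (permutation p = 0.029, adjusted p = 0.298). Sfmbt2 with the astrocyte list gave r = 0.43 (permutation p = 0.020, adjusted p = 0.375) and rho = 0.36 (permutation p = 0.058, adjusted p = 0.529), at 0.10 in Q111/+ and 0.71 in +/+ mice and 0.26 without the 2 farthest.

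**Figure D5:**
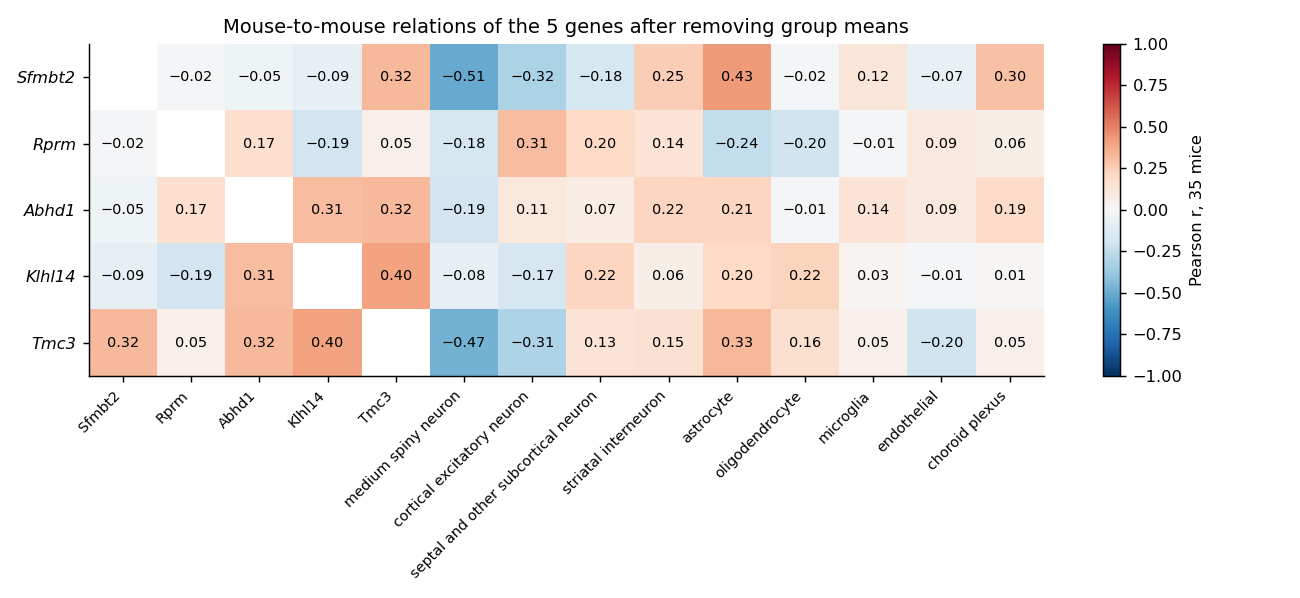
Pearson r (colour and number, 35 mice) of each of the 5 genes (rows) with the other members and with 9 marker list scores (columns), from log2 CPM centred on the 6 group means. The strongest values are -0.51 and -0.47 for Sfmbt2 and Tmc3 with medium spiny neuron markers, and pairs among the 5 genes run from -0.19 to 0.40.

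The genes whose centred levels were most like each of the 5 over 35 mice, among 15089 genes of at least 1 CPM, are given without a test. For Rprm the nearest was Tnnt2, at r = 0.73, which is also the 8th gene of the ranking by genotype difference, followed by the arginine methyltransferase gene Prmt2 at 0.68 and 6330406I15Rik at 0.64. For Sfmbt2 they were Trip11, a Golgi protein gene, at 0.78, the formin gene Daam1 at 0.73 and Fign at 0.69, none of which was called between genotypes. For Tmc3 they were the oligodendrocyte transcription factor gene Zfp488 at 0.75, Olfr614 at 0.71 and 1110021J02Rik at 0.71. For Abhd1 they were Lins2 at 0.67, Mmp28 at 0.63 and the DNA repair gene Xpa at 0.61, and for Klhl14 AK015504 at 0.61, BC038474 at 0.60 and Nup210 at 0.54. No gene was on the list of more than 1 of the 5.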

How the data were processed

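Striatal RNA of 35 mice was sequenced from TruSeq Stranded mRNA libraries with paired reads of 50 bases. Per the submitters' processing notes, the authors aligned with Bowtie 0.12.9 and estimated expected counts per gene with RSEM 1.1.18 on the mm9 mouse genome. The deposited expected counts were used as they are, in 22099 genes. Per mouse they sum to 32200158 to 38641924 (median 35538941), which limits genes of few counts.

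Groups came from the labels, and mouse numbers only name a mouse. Genes were filtered with filterByExpr, libraries scaled by TMM (factors 0.971 to 1.03) and fitted with limma 3.58.1 after voom, as a mean for each of 6 groups, with Benjamini-Hochberg adjustment over 17639 genes. CPM used TMM-scaled library totals. Log2 CPM used a prior count of 2. Intervals are 95%. P-values measure the spread between mice, which were treated as independent. The paper calls them littermates, but the labels do not say which mice shared a litter or cage, so neither was modelled. Alternatives were edgeR 4.0.16 and DESeq2 1.42.0 on rounded counts, library totals, no filter, lane, and subsets of mice. The scripts were tested on simulated counts. Promoters came from RefSeq and gene positions from GENCODE, both on GRCm38, matched by symbol, since the mm9 build was not at hand.

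The 5 genes and all lists were chosen with earlier results of these data known. Named genes are the 5, Htt, the 5 next in rank, the 3 most like each, their nearest 2 tested neighbours on each side, and up to 4 called genes of largest change per list, with Trp53, Rprml, Sfmbt1 and the genes near Abhd1 added after their values were seen. Some genes that the rule names are not reported here.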

Additional observations from a re-analysis of the deposited data

Results flagged for a closer look

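Among 30 sets of values (5 genes in 6 groups), 4 held a mouse farther from the others of its group than Dixon's 95% limit allows, where chance gives about 1 in 20. Abhd1 had 1 Q111/+ saline mouse at 2.81 CPM, the next lowest being at 5.57 CPM. Tmc3 had 1 Q111/+ saline mouse at 6.22 CPM, the next being at 3.43 CPM, and that mouse was also above the other Q111/+ mice in summed astrocyte markers (1147 CPM, the others reaching 1127) and microglia markers (443 CPM, the others reaching 438). Klhl14 had 1 Q111/+ control ASO mouse at 3.35 CPM, the next being at 2.38 CPM, and that mouse was below the other Q111/+ mice in summed septal (56.5 CPM) and choroid plexus markers (44.9 CPM). Rprm had 1 +/+ Htt ASO mouse at 5.56 CPM, the next being at 4.25 CPM, which only just passed (Dixon ratio 0.6256, limit 0.625). That mouse is the 1 sampled on the left side, and it had the highest summed septal markers (65.5 CPM) and the lowest summed astrocyte markers (987 CPM) of the +/+ mice. The part of these markers in the 4 values was not tested.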

How the results depend on the processing

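No paired analysis was possible because the labels give no replicate numbers, and the numbers used here follow accession order and only name a mouse. The genotype differences kept their direction under 8 alternatives, from 1.48 to 1.55 for Sfmbt2, 1.14 to 1.21 for Rprm, 1.04 to 1.18 for Abhd1, 1.03 to 1.12 for Klhl14 and 1.02 to 1.14 for Tmc3 (log2). Leaving out each of 35 mice in turn gave 1.48 to 1.54, 1.15 to 1.21, 1.11 to 1.19, 1.05 to 1.12 and 0.999 to 1.11 in the same order. Of the 5 genes, 0 were called in any treatment contrast under these alternatives, the lowest adjusted p being 0.679 (limma). Library totals without TMM called 56 listed genes higher and 36 lower, against 35 and 50, and moved the share of higher calls over all genes from 54.7% to 72.1%. Leaving out 1 mouse gave 31 to 37 higher and 46 to 55 lower. With lane removed, 1 of 55 relations passed (Sfmbt2 with medium spiny neuron markers), against 0, by shuffles that ignored lane. Of 46 listed genes named by rule, 12 lost their call in at least 1 other alternative and 5 (Abhd2, Aif1, Aqp4, Otx2 and Trpc4) on leaving out 1 mouse, and 0 changed direction. With lane as a covariate 3 of the 5 genes stayed among the 5 highest. Leaving out both Q111/+ saline mice that stand apart (Abhd1 and Tmc3), leaving out the library highest in choroid plexus markers, and the values without single mice and without a minimum size near Abhd1 were chosen after seeing the data. Klhl14 and Tmc3 rest on 30 to 62 and 36 to 57 counts per +/+ mouse, which limits them most.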
